A study of Homo sapiens with 6 samples.

Results

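The interferon response and antigen presentation were described here through 41 genes: 4 RNA sensors and their adaptor, 6 genes for interferon-β and the transcription factors around it, 25 interferon-stimulated effectors, and 6 genes of the class I antigen presentation route. The list was made by name and by known role, without a threshold on measured values. Of the 41, 40 were measured among 18372 genes tested. STAT2, which encodes a subunit of the interferon-activated transcription factor complex, was not analysed here. The cells were A375, an established human melanoma line with mutant BRAF, and the study profiled them to ask which processes follow FAH, the enzyme that closes tyrosine degradation by making fumarate and acetoacetate. One group was transfected with an siRNA against FAH (siFAH, 3 arrays) and the other with a negative control siRNA (control siRNA, 3 arrays), both for 72 h. No untransfected cells were among the samples, so both groups had received a small double-stranded RNA, and the effect of that RNA on these genes was not measured. The labels do not say which siRNA sequence siFAH was. They name no further siRNA against FAH and no rescue, so a change cannot be told apart from an effect of siFAH on other transcripts.

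Cells detect foreign RNA with cytosolic helicases and with endosomal TLR3. The helicases signal through MAVS on mitochondria, and IRF3 and IRF7 then switch on the gene for interferon-β. Secreted interferon acts through its receptor on a transcription factor complex that holds STAT2 and IRF9 and binds the interferon-stimulated response element (ISRE) in the promoters of antiviral effectors. Interferon also raises the genes that cut, transport and load peptides on class I molecules, and melanoma cells are often studied for how much of that route they keep.

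Values are log2 signals from the robust multichip average (RMA), and every difference is siFAH minus control siRNA on that scale. Array medians lay between 5.45 and 5.47, and 57.59% of the variance lay on the first principal component. FAH itself had 4.92, 4.60 and 4.92 in siFAH, against 5.48, 5.59 and 5.68 in control siRNA, a difference of -0.77 (SE 0.10, limma adjusted p = 0.00213). Over all genes tested, 639 (3.48%) were called higher in siFAH and 1172 (6.38%) were called lower (adjusted p under 0.05). These counts fell to 271 and 440 without siFAH replicate 2, 267 and 390 without siFAH replicate 3, 267 and 472 without control siRNA replicate 2, and 289 and 438 without control siRNA replicate 3. Quantile normalization of the same values gave 746 and 865, and cyclic loess 771 and 788, so the balance of higher and lower calls depended on the scaling. Of the melanocyte lineage markers, 6 of 7 were measured and 0 were called, with SOX10, S100B and MITF above the dim limit described next and MLANA, PMEL and TYR under it. Of the leukocyte markers, 6 of 7 were measured and 4 were dim. Their median signal lay between 4.26 and 4.47 in siFAH and between 4.15 and 4.41 in control siRNA. The single leukocyte marker called was LYZ, the lysozyme gene, which had 5.37, 5.63 and 5.60 in siFAH, against 5.83, 6.15 and 6.14 in control siRNA (difference -0.51, adjusted p = 0.0147). It was not called without control siRNA replicate 2 (0.0625) or 3 (0.0646). Its part in the results below was not tested.

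The arrays carry no detection call, so the signals of 339 olfactory receptor genes, which are mostly silent in cultured cells, stood for background. A gene was called dim where its mean signal was at or under 4.41, the 95th percentile of those genes. By that limit 11 of the 40 measured genes (27.5%) were dim, close to the 29.0% of all genes tested. The dim genes were the sensor IFIH1, interferon-β itself, and 9 of the 25 effectors. All 6 antigen presentation genes were above the limit. The median over all genes was 5.46, and 25 of the 40 (62.5%) lay at or under it, among them 18 of the 25 effectors and 1 of the 6 antigen presentation genes (NLRC5). Probe sets differ in how brightly they respond, so these counts mark dim probe sets and do not rank transcript levels between genes or classes.

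**Figure D1:**
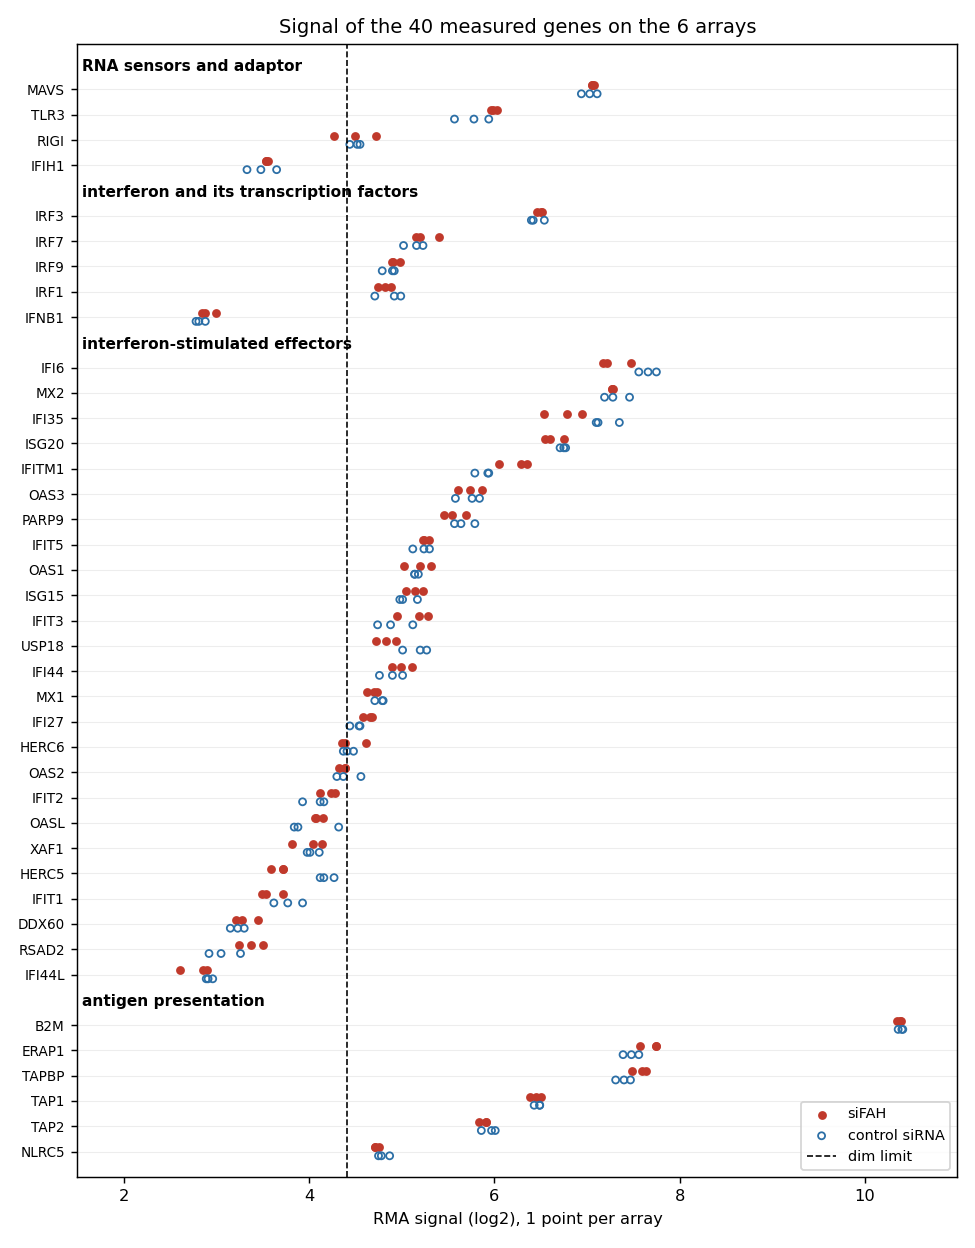
RMA signal (log2, horizontal axis) of the 40 measured genes, grouped by role and ordered by signal within a group. Filled red points above each line are the 3 siFAH arrays, open blue points under it the 3 control siRNA arrays, and the dashed line is the dim limit of 4.41. The antigen presentation genes all lie to the right of it, while 9 of the 25 effectors lie to its left on average.

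Calls among these genes went in both directions. Of the 40, 1 was called higher (2.5%) and 4 were called lower (10.0%), beside 3.48% and 6.38% of all genes tested. All 5 called genes were effectors, the class that held 25 of the 40. Of the sensors, transcription factors and antigen presentation genes 0 were called. Unadjusted limma p values were under 0.05 in 3 of those 15 genes, beside 4808 of all 18372 genes tested. The median difference over the 40 was 0.030, beside 0.005 over all genes, and 22 differences were positive and 18 negative. The difference was smaller than 0.25 either way in 34 of the 40 (85.0%), beside 85.5% of all genes tested, so small differences were no property of these genes. For 32 of the 35 genes that were not called, the 95% interval lay within 0.4 either way. The study's limits, at least 1.2-fold and a p under 0.05, were given with SAM and were applied here to limma's unadjusted p. Used in that way, they were passed upward by 2 of the 40 and downward by 4, beside 4.74% and 7.83% of all genes. The arrays did not overlap between groups in 5 genes with siFAH above and 4 with siFAH below, or 12.5% and 10.0%, beside 13.4% and 18.6% of all genes tested. In bulk samples such as these, fewer cells carrying a transcript and less of it per cell cannot be told apart. With 3 arrays against 3, an exact two-sided permutation test of a single gene cannot go below 0.1, so the calls rest on limma's spread shared across genes.

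**Figure D2:**
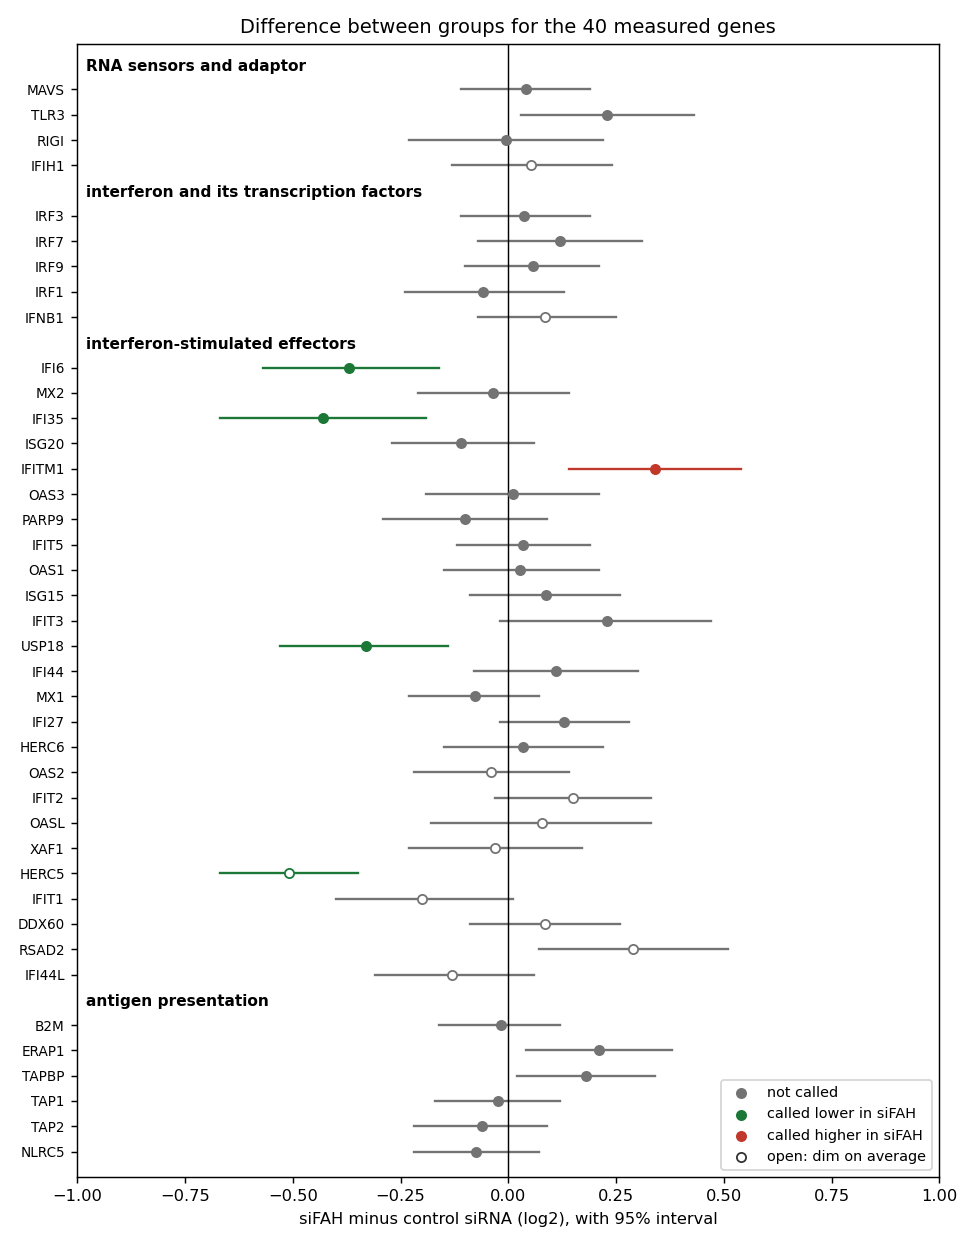
Difference between siFAH and control siRNA (log2, horizontal axis) for the 40 measured genes, with bars for 95% intervals from limma. Red marks the gene called higher, green the 4 called lower, grey the 35 not called, and open points are dim on average. IFITM1 lies at 0.34 and HERC5 at -0.51, and the sensors, transcription factors and antigen presentation genes lie between -0.07 and 0.23.

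The promoters of these genes were described as well, apart from their signals. The letters GAAANNGAA, most of the ISRE core, were searched on both strands of RefSeq promoters (250 bases before to 50 after each start, GRCh38.p14), which were matched for 32 of the 40 measured genes. At least 1 match was found in 22 of the 32 (68.8%), beside 968 of 14205 promoters of all genes tested (6.81%). The genes were listed by known role in the interferon response and antigen presentation, so a high share may come from the listing and is no separate result. Among the matched promoters, it was found in 15 of 20 effectors, 5 of 5 antigen presentation genes, 2 of 4 sensor and adaptor genes and 0 of 3 genes of interferon and its transcription factors. A match is a run of letters and not a bound site. No match means only that these exact letters were absent from the window, which may still hold related letters with other spacing. The stretches below are shown because they carry like letters in genes that differed in call. HERC5 and IFI6 were called lower, IFITM1 and BST2 (a gene of the wider set below) were called higher, and ISG15, IFIT1, B2M and TAP1 were not called. Each is read 5′ to 3′ on the gene's own strand, with the matches in capitals, and runs of TTC and TTTC are matches on the opposite strand.
HERC5, chr4:88456983-88457066, + strand: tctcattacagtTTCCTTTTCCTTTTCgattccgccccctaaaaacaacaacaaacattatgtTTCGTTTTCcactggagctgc
IFI6, chr1:27672265-27672360, - strand: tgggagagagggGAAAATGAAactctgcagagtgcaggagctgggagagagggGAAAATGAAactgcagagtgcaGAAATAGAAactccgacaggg
IFITM1, chr11:313988-314042, + strand: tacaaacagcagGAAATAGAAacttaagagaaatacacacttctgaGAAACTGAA
BST2, chr19:17405734-17405772, - strand: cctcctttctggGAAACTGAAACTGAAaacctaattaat
ISG15, chr1:1013372-1013416, + strand: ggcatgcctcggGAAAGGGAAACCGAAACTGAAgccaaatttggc
IFIT1, chr10:89392496-89392541, + strand: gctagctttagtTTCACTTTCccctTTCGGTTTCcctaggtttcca
B2M, chr15:44711361-44711399, + strand: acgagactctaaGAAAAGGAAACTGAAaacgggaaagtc
TAP1, chr6:32853811-32853849, - strand: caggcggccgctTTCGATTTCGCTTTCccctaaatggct
Matches began 124 to 73 bases before the start in HERC5, 156 to 93 in IFI6 and 40 to 6 in IFITM1. In ISG15 they began 113 to 101 bases before it, and in IFIT1 115 to 102. The letters were found in 3 of the 4 called genes with a matched promoter and in 19 of the 28 not called. With 4 called promoters the shares cannot be compared closely, and whether the letters go with a call was not tested. The called gene with no match in its window was IFI35. IRF3, IRF7, IFIT2, MX2, OAS2, OASL, USP18 and NLRC5 had no entry in the promoter table.

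Among the sensors, RIGI, which encodes the helicase RIG-I for viral RNA ends, had 4.50, 4.72 and 4.27 in siFAH, against 4.44, 4.55 and 4.52 in control siRNA. The siFAH arrays lay on both sides of the control arrays, and the difference was -0.01 (95% interval -0.23 to 0.22). IFIH1, which encodes the long double-stranded RNA sensor MDA5, was dim throughout, with 3.53, 3.53 and 3.56 in siFAH and 3.65, 3.48 and 3.33 in control siRNA. Its groups overlapped as well (0.05, 95% interval -0.13 to 0.24). MAVS, the mitochondrial adaptor of both helicases, had 7.06, 7.08 and 7.06 in siFAH, against 6.94, 7.11 and 7.03 in control siRNA. All siFAH values of MAVS fell inside the control range, with a difference of 0.04 (95% interval -0.11 to 0.19).

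TLR3, the endosomal receptor for double-stranded RNA, was the sensor with the widest gap. It had 5.96, 5.99 and 6.03 in siFAH, against 5.57, 5.78 and 5.94 in control siRNA. The groups did not overlap, though the control arrays ranged up to within 0.02 of the siFAH arrays. The difference of 0.23 (SE 0.09, unadjusted p = 0.0308) did not pass the adjusted threshold (limma adjusted p = 0.145).

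Interferon-β (IFNB1), the cytokine at the centre of the response, had 2.88, 2.84 and 3.0 in siFAH, against 2.88, 2.81 and 2.78 in control siRNA. All 6 values lay well under the dim limit, so its message was not above background in either group. The factors that act before and after it were above the limit and were not called. IRF3, which responds first, differed by 0.04 (95% interval -0.11 to 0.19), and IRF7, itself induced by interferon, by 0.12 (95% interval -0.07 to 0.31). IRF9, the DNA-binding subunit of the complex that acts after interferon, had 4.91, 4.90 and 4.98 in siFAH, against 4.92, 4.90 and 4.79 in control siRNA, which overlapped. IRF1, an activator of class I genes, differed by -0.06 (95% interval -0.24 to 0.13). The 5 differences lay between -0.06 and 0.12, with a median of 0.057.

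The effectors, 25 of the 40 measured genes, held all the calls. Of the 25, 1 was called higher and 4 lower, beside 3.48% and 6.38% of all genes tested. HERC5, the ligase that attaches ISG15 to new viral and host proteins, had 3.59, 3.72 and 3.72 in siFAH, against 4.12, 4.16 and 4.27 in control siRNA. The groups were well apart and the difference was -0.51 (SE 0.07, limma adjusted p = 0.00331). All 6 arrays lay under the dim limit, so this is a difference between dim signals and no fold is given for it. HERC5 was the 1 of the 5 called genes that stayed called in every fit without 1 array, at -0.46 to -0.54.

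IFI35, an interferon-induced leucine zipper protein, had 6.95, 6.79 and 6.54 in siFAH, against 7.10, 7.12 and 7.35 in control siRNA. Every siFAH array lay below every control array, and the difference was -0.43 (SE 0.11, adjusted p = 0.0339). Its adjusted p was 0.0813 without siFAH replicate 2, 0.111 without siFAH replicate 3, 0.0703 without control siRNA replicate 2 and 0.121 without control siRNA replicate 3. IFI6, a small protein of the endoplasmic reticulum and mitochondria that limits cell death and flavivirus replication, had 7.48, 7.22 and 7.17 in siFAH, against 7.56, 7.66 and 7.75 in control siRNA. These groups were also apart, by 0.08 at the nearest arrays, and the difference was -0.37 (SE 0.09, adjusted p = 0.0345). The IFI6 call was lost without siFAH replicate 2 (adjusted p = 0.111), siFAH replicate 3 (0.127), control siRNA replicate 2 (0.0931) and control siRNA replicate 3 (0.117), and after quantile normalization (0.0607) and cyclic loess (0.0698).

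USP18, the protease that removes ISG15 from proteins and dampens the interferon receptor, had 4.83, 4.72 and 4.94 in siFAH, against 5.27, 5.20 and 5.01 in control siRNA. The highest siFAH array lay 0.075 below the lowest control array, and the difference was -0.33 (SE 0.09, adjusted p = 0.0387). The adjusted p was 0.0763, 0.130 and 0.0556 without siFAH replicates 1, 2 and 3, and 0.0876 and 0.117 without control siRNA replicates 1 and 2. A near-identical copy of USP18 shares its sequence, and a probe set listed for both genes was left out, so the value may hold signal from the copy.

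IFITM1, a membrane protein that blocks entry of enveloped viruses, was the 1 gene called higher. It had 6.29, 6.35 and 6.05 in siFAH, against 5.79, 5.94 and 5.93 in control siRNA. The groups did not overlap, and the difference was 0.34 (SE 0.09, adjusted p = 0.0387). It was 0.43 without siFAH replicate 3 (adjusted p = 0.0260), and the call was lost without any other array, at adjusted p values of 0.0950 and 0.129 without siFAH replicates 1 and 2 and 0.0862, 0.0805 and 0.0873 without control siRNA replicates 1, 2 and 3.

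**Figure D3:**
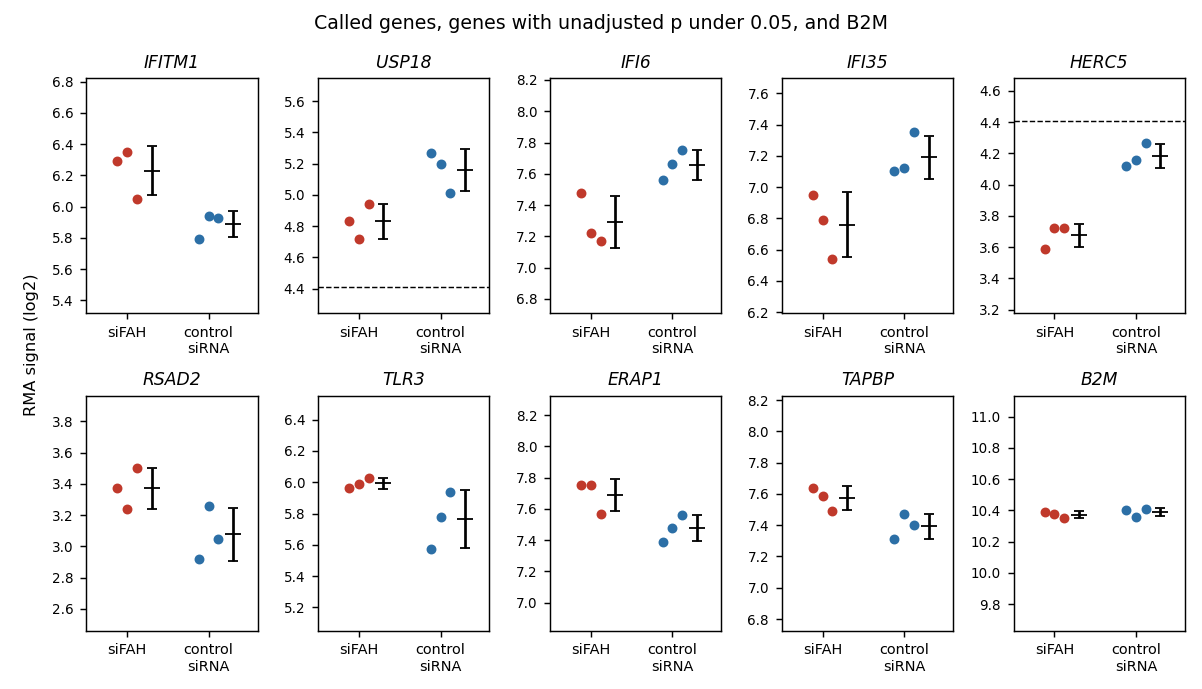
RMA signal (log2, vertical axes, each spanning the same 1.5 units) of the 5 called genes, the 4 further genes with an unadjusted p under 0.05, and B2M. Points are arrays, siFAH in red to the left and control siRNA in blue to the right, with black marks for mean and SD (n = 3 each) and a dashed line for the dim limit where it falls in range. The groups are apart in all called genes, while the B2M arrays lie together between 10.35 and 10.41.

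The other 20 effectors were not called, and they included the transcripts most often read as an interferon signature. ISG15, the ubiquitin-like modifier, had 5.14, 5.05 and 5.23 in siFAH, against 5.17, 5.01 and 4.98 in control siRNA, and its groups overlapped (0.09, 95% interval -0.09 to 0.26). IFIT1, which binds foreign RNA caps, was dim, with 3.49, 3.72 and 3.53 in siFAH and 3.77, 3.62 and 3.93 in control siRNA (-0.20, 95% interval -0.40 to 0.01). MX1, a dynamin-like GTPase against influenza virus, had 4.63, 4.73 and 4.70 in siFAH and 4.71, 4.79 and 4.80 in control siRNA (-0.08, 95% interval -0.23 to 0.07). For these transcripts the differences were smaller than the spread between arrays could separate.

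The OAS and IFIT families each held differences of both signs. The 4 oligoadenylate synthetase genes, whose products respond to double-stranded RNA by making short oligoadenylates (OASL lacks that activity), differed by 0.03 (OAS1), -0.04 (OAS2), 0.01 (OAS3) and 0.08 (OASL), and 0 were called. The IFIT genes, some of whose products bind viral RNA, lay at -0.20 (IFIT1), 0.15 (IFIT2), 0.23 (IFIT3) and 0.03 (IFIT5). IFIT3 had 4.95, 5.19 and 5.28 in siFAH, against 5.12, 4.74 and 4.88 in control siRNA, and overlapped (adjusted p = 0.225). MX2, which restricts HIV, lay at -0.04, with 7.28, 7.27 and 7.27 in siFAH and 7.19, 7.28 and 7.46 in control siRNA, and turned to 0.04 after quantile normalization and 0.05 after cyclic loess. HERC6, next to HERC5 on chromosome 4, lay at 0.03 (95% interval -0.15 to 0.22) while HERC5 was called lower, and turned to -0.01 after either scaling.

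RSAD2, which encodes viperin, passed the study's limits but not the adjusted threshold. It had 3.37, 3.24 and 3.50 in siFAH, against 2.92, 3.26 and 3.05 in control siRNA, all dim and overlapping by 1 array (0.29, adjusted p = 0.0884). IFI27, a mitochondrial protein strongly induced by interferon α, did not overlap between groups, with 4.66, 4.58 and 4.68 in siFAH and 4.44, 4.54 and 4.55 in control siRNA (0.13, adjusted p = 0.244). The remaining effectors were ISG20, IFI44, IFI44L, DDX60, PARP9 and XAF1. Their differences lay between -0.13 and 0.11 and the arrays of each overlapped.

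In antigen presentation, 0 of 6 genes were called as deposited, and differences lay between -0.07 and 0.21. B2M, the invariant light chain of every class I molecule, had 10.39, 10.38 and 10.35 in siFAH, against 10.40, 10.36 and 10.41 in control siRNA. The 6 arrays lay within 0.06 of each other, and the difference was -0.02 (95% interval -0.16 to 0.12). TAP1, a subunit of the peptide transporter, had 6.45, 6.50 and 6.39 in siFAH and 6.49, 6.49 and 6.43 in control siRNA, a difference of -0.03 (95% interval -0.17 to 0.12) that turned to 0.02 after quantile normalization and 0.03 after cyclic loess. TAP2, its partner, had 5.91, 5.91 and 5.83 in siFAH and 5.86, 5.97 and 6.01 in control siRNA (-0.06, 95% interval -0.22 to 0.09). For all 3 the groups overlapped. NLRC5, the transcriptional activator of class I genes, lay at -0.07 (95% interval -0.22 to 0.07).

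The peptide-handling genes TAPBP and ERAP1 stood at the other end of the class. TAPBP encodes tapasin, which holds class I molecules beside the transporter, and had 7.64, 7.59 and 7.49 in siFAH, against 7.31, 7.47 and 7.40 in control siRNA. ERAP1 encodes the aminopeptidase that trims peptides, and had 7.75, 7.75 and 7.57 in siFAH, against 7.39, 7.48 and 7.56 in control siRNA. In both, every siFAH array lay above every control array, by 0.02 at the nearest pair in TAPBP and 0.003 in ERAP1. The differences were 0.18 (SE 0.07, adjusted p = 0.151) and 0.21 (SE 0.08, adjusted p = 0.120), and neither was called as deposited. After quantile normalization both were called higher, TAPBP at 0.27 (adjusted p = 0.0397) and ERAP1 at 0.29 (adjusted p = 0.0249), and after cyclic loess at 0.28 (adjusted p = 0.0350) and 0.31 (adjusted p = 0.0213), so their call depended on the scaling. TAP1, TAP2 and TAPBP each had 3 probe sets, which gave like differences of -0.03 for TAP1, -0.08 to -0.04 for TAP2 and 0.15 to 0.18 for TAPBP. The 3 of TAP1 had the same mean signal (6.46). Probe sets of 1 gene may share probes, so they are not separate measurements.

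**Figure D4:**
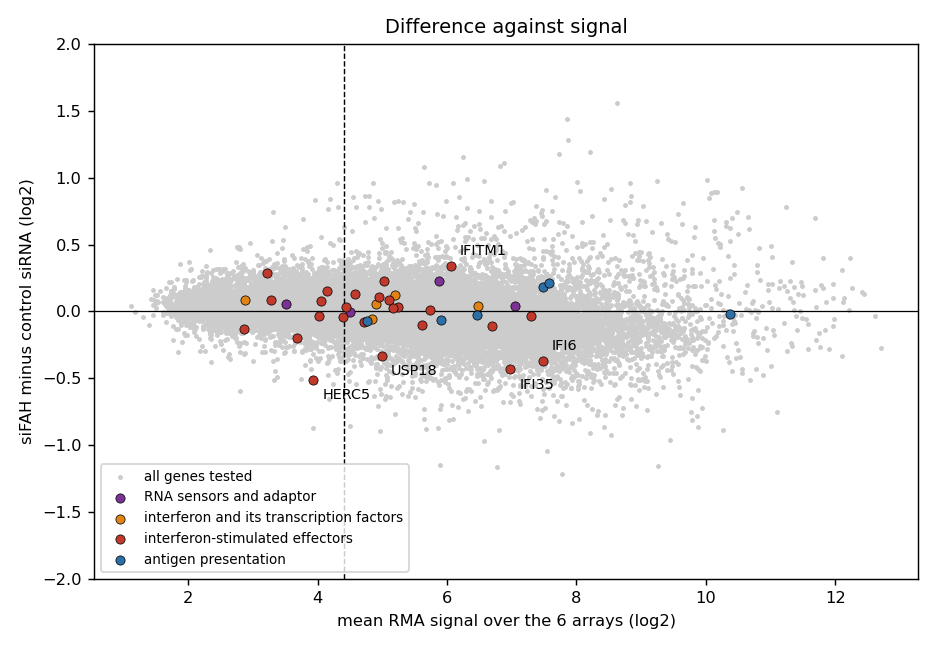
Difference between siFAH and control siRNA (log2, vertical axis) against mean signal over the 6 arrays (log2, horizontal axis). Grey points are all 18372 genes tested, coloured points the 40 measured genes by role, and the dashed line is the dim limit of 4.41. The 5 called genes are named, and the antigen presentation genes lie between -0.07 and 0.21 up to B2M at 10.38.

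A wider set of 103 genes of the same pathways, of which 89 were measured, placed these values in context. Of the 89, 4 were called higher (4.5%) and 5 lower (5.6%), beside 3.48% and 6.38% of all genes tested, so the shares were near the background. In sensing and signaling, 34 of 37 were measured, 0 were called higher and 2 were called lower. TBK1, the kinase that activates IRF3, had 7.34, 7.45 and 7.46 in siFAH, against 7.64, 7.65 and 7.70 in control siRNA (-0.25, adjusted p = 0.0422), but was -0.16 (adjusted p = 0.171) after quantile normalization and -0.15 (adjusted p = 0.194) after cyclic loess. IFNAR2, a chain of the interferon α and β receptor, had 5.71, 5.66 and 5.70 in siFAH, against 5.98, 5.86 and 6.03 in control siRNA (-0.27, adjusted p = 0.0396). Both were apart between groups, and both lost the call without any single array, at adjusted p values of 0.0638 to 0.115 for TBK1 and 0.0576 to 0.122 for IFNAR2.

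Among other interferon-stimulated genes, 35 of 36 were measured. Of the 35, 4 were called higher and 0 lower, beside 3.48% and 6.38% of all genes tested. Whether these shares differ was not tested. BST2, which encodes tetherin, a tether of budding virions at the cell surface, had 4.79, 4.78 and 4.59 in siFAH, against 3.98, 4.20 and 4.09 in control siRNA. All control arrays lay under the dim limit and all siFAH arrays above it, and the mean over the 6 arrays (4.40) counted as dim. The measured difference was 0.63 (SE 0.08, limma adjusted p = 0.00251), and no fold is given for it. IFITM3 had 9.27, 9.37 and 9.27 in siFAH, against 8.99, 8.90 and 8.94 in control siRNA (0.36, adjusted p = 0.0106). IFITM2 had 8.0, 8.20 and 8.19 in siFAH, against 7.84, 7.71 and 7.64 in control siRNA (0.40, adjusted p = 0.0156). With IFITM1, all 3 of these entry-restricting genes of chromosome 11 were called higher. They are related genes whose probes may take up each other's message. That was not tested, so they are not counted as 3 separate measurements. IFITM3 missed the threshold without control siRNA replicate 2 (0.0504), and IFITM2 without siFAH replicate 2 (0.0635) or 3 (0.0643) and without control siRNA replicate 2 (0.0610) or 3 (0.0596).

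GBP2, an interferon-induced GTPase, had 5.83, 5.91 and 5.68 in siFAH, against 5.50, 5.50 and 5.34 in control siRNA (0.36, adjusted p = 0.0222). Its other probe set differed by 0.09, and the mean of both was 0.23 (adjusted p = 0.101), so the probe sets disagreed. The GBP2 call was also lost without siFAH replicate 1 (0.0522) or 2 (0.0860) and without control siRNA replicate 2 (0.0581) or 3 (0.0782).

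In the wider antigen presentation list, 20 of 30 were measured. Beside 3.48% and 6.38% of all genes tested, 0 of the 20 were called higher and 3 were called lower. All 3 belong to class II, the route that shows peptides from engulfed material to helper T cells and that many melanoma cells express. HLA-DPB1, the β chain of HLA-DP, had 7.97, 7.89 and 7.77 in siFAH, against 8.44, 8.57 and 8.83 in control siRNA (-0.73, SE 0.10, adjusted p = 0.00282). Its 3 probe sets lay between -0.78 and -0.69, but they may share probes and are not separate measurements. HLA-DOA, a chain of the HLA-DO modulator of peptide loading, had 5.33, 5.42 and 5.21 in siFAH, against 5.71, 5.79 and 5.68 in control siRNA (-0.41, adjusted p = 0.0106). HLA-DMA, a chain of the HLA-DM peptide exchanger, had 8.30, 8.05 and 7.97 in siFAH, against 8.43, 8.41 and 8.70 in control siRNA (-0.41, adjusted p = 0.0362). In each of these the groups were apart. HLA-DPB1 and HLA-DOA stayed called in every fit without 1 array, whereas HLA-DMA lost the call without siFAH replicates 2 (0.107) and 3 (0.131) and control siRNA replicates 2 (0.0630) and 3 (0.119), and after quantile normalization (0.0632) and cyclic loess (0.0692).

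The partner chains of HLA-DPB1 and HLA-DMA, and CIITA, all named after their values were seen, were not called. HLA-DPA1, the α chain that pairs with HLA-DPB1, had 9.79, 9.75 and 9.74 in siFAH, against 9.80, 9.87 and 10.02 in control siRNA (-0.14, adjusted p = 0.279). HLA-DMB, the partner of HLA-DMA, lay at 0.07 (adjusted p = 0.558), and CIITA, the class II transactivator, at -0.15 (adjusted p = 0.202). In HLA-DPA1 and CIITA every siFAH array lay below every control array, by 0.008 and 0.065 at the nearest pair, as in 18.6% of all genes tested. The HLA-DMB arrays overlapped. Whether the called chains differed from their partners was not tested. GAAANNGAA was found in 5 of the 19 matched promoters of this wider list (26.3%), beside 6.81% of all genes tested, and HLA-DPB1, HLA-DMA and HLA-DOA held none in these windows.

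**Figure D5:**
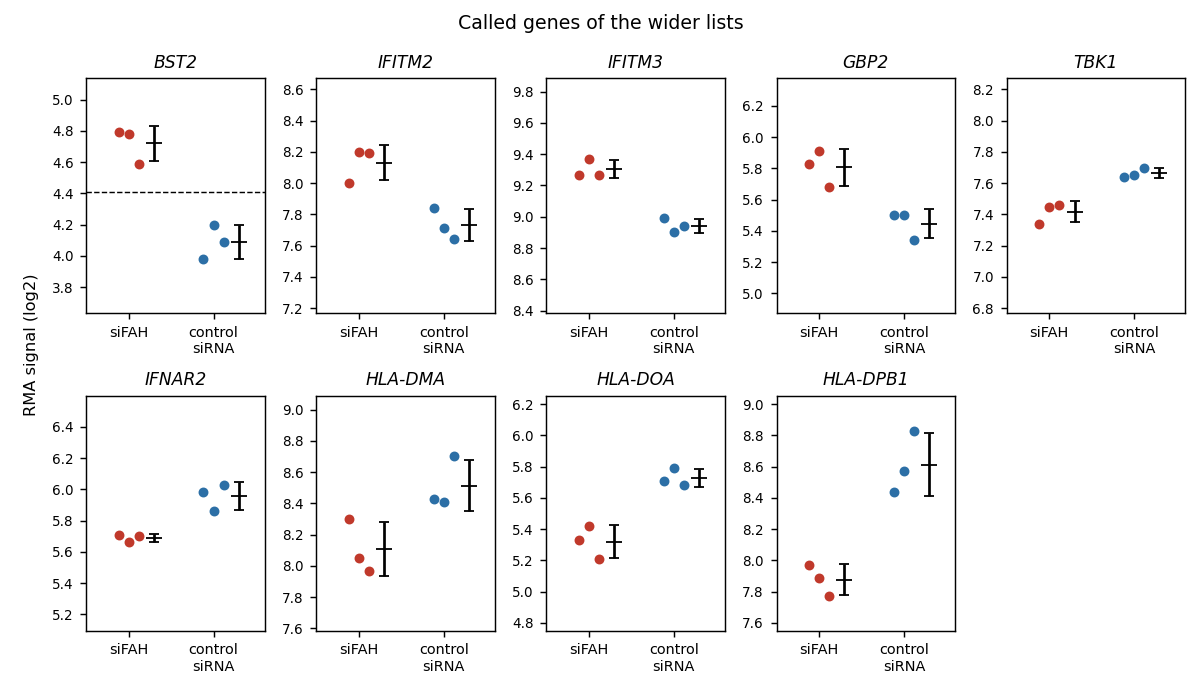
RMA signal (log2, vertical axes, each spanning the same 1.5 units) of the 9 genes called in the wider lists. Points are arrays, siFAH in red to the left and control siRNA in blue to the right, with black marks for mean and SD (n = 3 each) and a dashed line for the dim limit where it falls in range. The siFAH arrays lie above the control arrays in BST2, IFITM2, IFITM3 and GBP2 and below them in the other 5.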

How the data were processed

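The values were log2 signals of Affymetrix Human Gene 1.0 ST arrays, as deposited. The authors made them by RMA (background correction, normalization between arrays, 1 summary per probe set), as the submitters' processing notes and the methods name it, without a version. For the normalization, the methods name global scaling. The sources differ on the RNA and labelling kits. Samples were grouped by transfection in the labels, which call the replicates biological. Of 28829 probe sets, 19291 had 1 gene symbol, 1735 several and 7803 none. Per symbol, the probe set with the highest mean signal was kept, which gave 18372 genes. The 2 groups were compared in R 4.3.3 by the moderated linear model of limma 3.58.1 (4 residual degrees of freedom), two-sided, with Benjamini-Hochberg adjustment over all genes, and called at an adjusted p under 0.05. The fit was tested on simulated data. Arrays have no read depth, and their number limits the precision.

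All 41 genes were named, with FAH and each called gene of the wider lists. Members, lists and alternatives were chosen with earlier results of these data known. Alternatives were other normalizations, filters on dim genes, trend and robust eBayes, array weights, SAM (the methods' test), the mean of probe sets, a replicate block and leaving out each array. Promoters came from RefSeq (GRCh38.p14). Tables were handled with Python 3.11.15, numpy 2.4.6 and pandas 2.3.3, and figures drawn with matplotlib 3.10.9.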

Additional observations from a re-analysis of the deposited data

How the results depend on the processing

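Over the 40 measured genes and all alternatives, 542 of their values kept direction and side of the threshold, 29 lost and 5 gained the call, and 28, all of uncalled genes, changed sign. The count called higher was 3 after quantile normalization and cyclic loess, 2 with array weights, 0 by SAM and 0 to 1 without 1 array. Over all genes, higher and lower calls were 639 and 1172 as reported, 746 and 865 after quantile normalization, 771 and 788 after cyclic loess, 1170 and 1743 with array weights, and 267 to 653 and 390 to 1192 without 1 array, so counts moved for all genes too. The count of the 40 called lower was 2 with genes at or under the median signal left out, 0 by SAM and 1 to 3 without 1 array. The count past the study's limits was 3 with those genes left out, where 15 of the 40 were tested. The median of antigen presentation was 0.049 after cyclic loess, and with the limit at the median of all genes 25 genes were dim. Of the wider genes, 14 were called with array weights, 0 by SAM and 3 to 10 without 1 array. SAM over 20 arrangements gave no adjusted p under 0.1, so its counts of 0, and FAH at -0.77 (adjusted p = 0.101), say nothing about stability. At an unadjusted p under 0.05 SAM gave 7 of the 40 and limma 9, beside 4808 of all 18372 genes tested by limma.

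With a replicate block, 0 of the 40 were called higher, 1 lower and 5 of the wider genes, beside 299 and 462 of all genes. Same-numbered arrays did not deviate together (correlations -0.16, -0.09 and -0.27), and no array correlated best with its own number.

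Signs changed with array weights in RIGI (0.004), MAVS (-0.004), IRF1 (0.049), OAS3 (-0.017) and B2M (0.00048). With quantile normalization they changed in MX2 (0.044), HERC6 (-0.01) and TAP1 (0.023), and with cyclic loess in MX2 (0.054), HERC6 (-0.01), B2M (0.07) and TAP1 (0.027). Without 1 array they changed in RIGI (-0.114 to 0.107), IFIH1 (-0.024 to 0.134), MAVS (-0.002 to 0.082), IFIT5 (-0.015 to 0.073), MX2 (-0.097 to 0.041), OAS1 (-0.042 to 0.104), OAS2 (-0.095 to 0.034), OAS3 (-0.063 to 0.075), OASL (-0.009 to 0.231), HERC6 (-0.048 to 0.084), XAF1 (-0.101 to 0.059) and TAP1 (-0.05 to 0.00083). Causes were not tested.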
